A study of Mus musculus with 4 samples.

Results

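The CD28 family of receptors and the B7 family of ligands were examined by RNA-seq in mouse CD4 T cells that did or did not carry ectopic Tox. The 9 genes were taken by symbol, as 5 receptors (*Cd28*, *Icos*, *Ctla4*, *Pdcd1* and *Btla*) and 4 ligands (*Cd274*, *Pdcd1lg2*, *Cd80* and *Cd86*), out of 24369 genes listed. All 9 had enough counts to be among the 14143 genes tested. Naïve CD4 T cells from spleens of wild-type C57BL/6 mice were activated without polarizing cytokines, on anti-CD3 with soluble anti-CD28 and IL-2, and were transduced on day 2. On day 5 the cells were restimulated for 5 h and sorted for CD4 and GFP. EV RV cells received the MSCV-IRES-eGFP vector, and Tox RV cells the same vector with Tox ahead of the IRES. There were 2 libraries per group from individual mice, and the labels do not say whether the same mice served both groups. In both groups the anti-CD28 antibody engaged the protein product of *Cd28*. The methods name anti-CD3 alone for the restimulation, while the paper's results section and the series' design text add anti-CD28.

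CD28 family receptors are single immunoglobulin-domain proteins of the T cell surface that add to, or oppose, the signal of the T cell receptor. CD28 and ICOS are costimulatory and recruit PI3K through a tyrosine motif of the tail. CTLA-4 binds the same ligands as CD28 (CD80 and CD86) with higher affinity and limits costimulation, PD-1 (*Pdcd1*) inhibits after binding PD-L1 (*Cd274*) or PD-L2 (*Pdcd1lg2*), and BTLA inhibits after binding HVEM, a TNF receptor family protein. The ligands are best known from B cells, macrophages and dendritic cells, but activated T cells also make them.

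The coding sequences of the tail motifs are shown because the gene that differed most between the groups, *Pdcd1*, carries inhibitory motifs. *Btla* carries motifs of the same kinds, while *Cd28*, *Icos* and *Ctla4* carry a motif of the PI3K type. A link between motif and difference was not tested. Each line gives the coding strand (5′ to 3′) of GENCODE M21 transcripts on GRCm38, the build named mm10, with the codons of the motif in capitals. *Cd28*, *Icos* and *Ctla4* lie on the plus strand of chromosome 1, *Pdcd1* on the minus strand of the same chromosome and *Btla* on the plus strand of chromosome 16.
Cd28, PI3K motif, chr1:60769675-60769722: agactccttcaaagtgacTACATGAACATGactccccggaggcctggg
Icos, PI3K motif, chr1:60995542-60995589: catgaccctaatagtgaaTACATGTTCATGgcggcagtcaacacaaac
Ctla4, PI3K-type motif, chr1:60914628-60914675: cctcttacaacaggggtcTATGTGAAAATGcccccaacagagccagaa
Pdcd1, inhibitory motif (ITIM), chr1:94039470-94039523: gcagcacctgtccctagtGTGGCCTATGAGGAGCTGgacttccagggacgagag
Pdcd1, switch motif (ITSM), chr1:94039401-94039454: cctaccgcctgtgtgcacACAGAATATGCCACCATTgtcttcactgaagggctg
Btla, inhibitory motif (ITIM), chr16:45250472-45250525: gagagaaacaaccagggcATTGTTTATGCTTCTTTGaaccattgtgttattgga
Btla, switch motif (ITSM), chr16:45250547-45250594: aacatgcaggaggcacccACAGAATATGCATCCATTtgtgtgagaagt
Each stretch lies within a single coding exon. The extracellular loop that contacts CD80 and CD86 is encoded by similar codons in *Cd28* and *Ctla4* and by others in *Icos*, whose ligand is a different B7 protein.
Cd28, ligand loop, chr1:60763257-60763310: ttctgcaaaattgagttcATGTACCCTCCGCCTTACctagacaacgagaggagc
Ctla4, ligand loop, chr1:60912695-60912748: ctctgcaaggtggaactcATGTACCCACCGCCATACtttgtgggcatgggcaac
Icos, ligand loop, chr1:60993965-60994018: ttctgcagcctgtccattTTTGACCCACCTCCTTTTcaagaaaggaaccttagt

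Each library held between 46989997 and 74548723 expected counts, where an expected count is RSEM's estimate of the fragments that came from a gene. Levels are given in TPM (RSEM's length-corrected share of all transcripts, scaled to the same total in every library), and differences as log2 fold changes of Tox RV over EV RV from edgeR's quasi-likelihood test on the counts, with Benjamini-Hochberg adjustment over all genes tested. EV RV replicate 1 stood apart from the other libraries (first principal component -53.8, against 5.7 to 25.8) and had 24.8% of its counts in the ribosomal RNA gene *Rn45s*, against 7.14% to 11.97% in the others, so the value without it is given for any of the 9 genes whose sign it turned. *Tox* was at 7.22 and 3.37 TPM in the EV RV libraries and at 69.1 and 56.9 TPM in the Tox RV libraries, as labelled. CD4 T cell markers (*Cd3d*, *Cd3e*, *Cd3g*, *Cd4*, *Cd5* and *Cd2*) summed to 1663 to 2178 TPM. In this test 0 genes, or 0% of those tested, had an adjusted p-value below 0.05, and so none of the 9 genes did. *Tox* itself, the gene in the retrovirus, did not pass either (log2 fold change 3.68, SE, the standard error, 0.38, adjusted p = 0.49 by edgeR). A gene that did not pass is therefore not shown to be unchanged. DESeq2, the tool named in the methods, called 22 genes, or 0.121% of the genes to which it gave an adjusted p-value, and *Pdcd1* was among them.

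*Pdcd1* was the gene of the family that differed most. EV RV replicate 1 had 21.96 TPM, EV RV replicate 2 had 20.7 TPM, Tox RV replicate 1 had 75.9 TPM and Tox RV replicate 2 had 61.8 TPM. The groups did not overlap, and the gap between them was larger than the difference between replicates of either group. The mean level was 21.3 ± 0.87 TPM in EV RV cells and 68.8 ± 9.98 TPM in Tox RV cells (SD, n = 2 each). The log2 fold change was 1.77 (SE, the standard error, 0.19, 95% interval 1.31 to 2.24), which is 3.42-fold with an interval of 2.47 to 4.72. The adjusted p-value was 0.49 by edgeR, and 1.06e-08 by DESeq2. *Pdcd1* shared the smallest edgeR value with 2 other genes. The authors' tables give *Pdcd1* 1 transcript, so its TPM does not depend on a choice among transcripts.

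The promoter of *Pdcd1* is shown because this gene had the largest difference among the 9. It was searched for the core of NFAT sites (GGAAA), for AP-1 sites (TGANTCA) and for IRF sites (AANNGAAA) on both strands. Within the RefSeq promoter window of GRCm38.p6 (250 bases before to 50 after the start), *Pdcd1* held 2 NFAT cores, 0 AP-1 matches and 1 IRF match, which overlaps both NFAT cores. The part before the start, chr1:94052554-94052803 on the minus strand, reads as follows, with matches in capitals.
Pdcd1 promoter: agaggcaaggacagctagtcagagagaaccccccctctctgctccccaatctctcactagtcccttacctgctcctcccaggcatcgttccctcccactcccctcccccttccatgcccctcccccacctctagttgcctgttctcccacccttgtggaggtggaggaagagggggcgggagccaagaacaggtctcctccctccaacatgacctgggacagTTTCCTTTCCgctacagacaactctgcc
Of the 32851 promoters in the table, 61.3% held an NFAT core, 7.81% an AP-1 match and 23.9% an IRF match. Among the 6 family promoters in the table, *Cd274* (2 NFAT cores, 1 IRF match) had the same counts as *Pdcd1*. *Pdcd1lg2* had 1 NFAT core and 1 IRF match, *Ctla4* 1 NFAT core, *Cd80* 1 AP-1 and 1 IRF match, and *Btla* 0 matches of any kind. A match is a description of letters and not a bound site, and a link between matches and levels was not tested.

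The costimulatory receptors were among the more abundant transcripts and showed small differences. *Cd28* was at 226 and 139 TPM in the EV RV libraries and at 131 and 150 TPM in the Tox RV libraries. The groups overlapped, and only EV RV replicate 1 was high. The log2 fold change of *Cd28* was -0.29 (SE 0.25, 95% interval -0.90 to 0.33, adjusted p = 0.897 in edgeR's test), and it was 0.06 without EV RV replicate 1. *Icos*, the inducible costimulator that supports T follicular helper cells, was at 84.2 and 93.7 TPM in EV RV cells and at 62.4 and 71.9 TPM in Tox RV cells. Neither Tox RV library reached the level of an EV RV library. The log2 fold change of *Icos* was -0.33 (SE 0.18, 95% interval -0.77 to 0.12, adjusted p = 0.897), and it ranged from -0.44 to -0.20 with each library left out in turn.

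*Ctla4* was the most abundant of the 9 genes by mean TPM in both groups and had almost the same mean in each. It was at 226 and 310 TPM in the EV RV libraries and at 255 and 283 TPM in the Tox RV libraries, so that the Tox RV libraries lay between the EV RV libraries. The means were 268 ± 60.0 and 269 ± 19.8 TPM (SD, n = 2 each). The log2 fold change was 0.08 (SE 0.23, adjusted p = 0.952 in edgeR's test), and its 95% interval of -0.48 to 0.64 corresponds to 0.715-fold to 1.56-fold. Without EV RV replicate 1 it was -0.17. *Btla* was at 17.4 and 19.5 TPM in EV RV cells and at 12.1 and 13.8 TPM in Tox RV cells. Here too the Tox RV values were both lower, with a log2 fold change of -0.43 (SE 0.19, 95% interval -0.89 to 0.03, adjusted p = 0.897). The estimates of *Pdcd1* and *Btla* had opposite signs and their 95% intervals did not overlap, though the interval of *Btla* included 0.

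**Figure D1:**
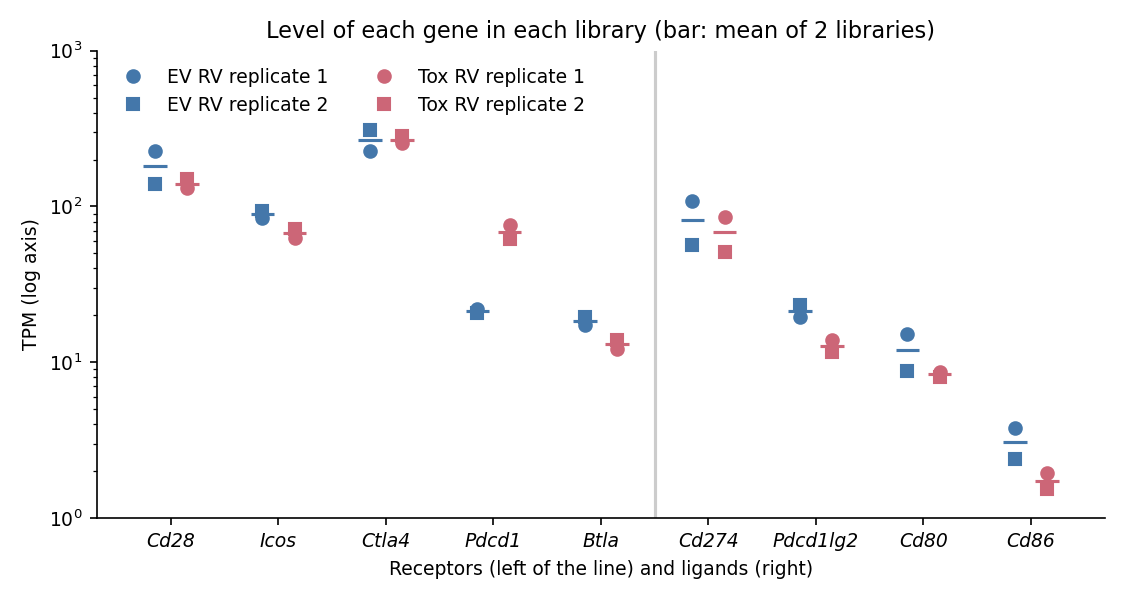
TPM (log axis) of the 5 receptors and 4 ligands in each of the 4 libraries, with a bar at the mean of each group of 2. *Pdcd1* is near 21 TPM in both EV RV libraries and at 61.8 and 75.9 TPM in the Tox RV libraries, while *Ctla4* overlaps between the groups.

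*Ctla4* and *Btla* were the members for which the authors' annotation listed 2 transcripts. RSEM gives such a gene the mean length of its transcripts weighted by their estimated use. A change between transcripts of different length would therefore move this length even if the level stayed the same. The length of *Ctla4* was 1911 and 1918 bases in EV RV cells, against 1911 and 1913 bases in Tox RV cells. That of *Btla* was 3233 bases in EV RV replicate 1 and between 3233 and 3234 bases in the other libraries. GENCODE gives the coding transcripts of *Ctla4* as 1933 and 614 bases and those of *Btla* as 3251 and 1598 bases. The authors' annotation differs from GENCODE, since its single transcript of *Pdcd1* has 1972 bases, against 1930 bases in GENCODE. The lengths of its 2 transcripts of *Ctla4* and of *Btla* are not known here, so which of them was used cannot be told. If they were of nearly equal length, this measure could not show a change between them. The groups overlapped in both genes.

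The ligands all had estimates below 0 in Tox RV cells, and none passed the test. In TPM the groups did not overlap for 3 of the 4 (*Pdcd1lg2*, *Cd80* and *Cd86*), beside 23.2% of all genes tested that lay lower in the same way. On the CPM scale described below *Cd80* overlapped, leaving 2, beside 17.4% of all genes tested. *Pdcd1lg2* (PD-L2) measured 19.4 and 23.4 TPM in EV RV cells, against 13.9 and 11.6 TPM in Tox RV cells. Both Tox RV values were the lower. The estimate was a log2 fold change of -0.67 (SE 0.21, 95% interval -1.18 to -0.16, adjusted p = 0.897 in edgeR's test), and it ranged from -0.84 to -0.48 with each library left out in turn. *Cd274* (PD-L1) was the most abundant ligand, at 108 and 56.3 TPM in EV RV cells and 85.0 and 51.4 TPM in Tox RV cells. Replicate 1 was the higher library in each group, and the groups overlapped. Replicate 1 was also the higher in TPM for the summed NK cell markers given below. So it was for every gene raised by T cell receptor stimulation in the list below except *Irf4*. The reason was not tested. The log2 fold change of *Cd274* was -0.17 (SE 0.37, adjusted p = 0.935), within an interval of -1.08 to 0.73. It was 0.32 without EV RV replicate 1 and 0.15 without Tox RV replicate 2, so no direction can be given for *Cd274*.

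*Cd80* and *Cd86*, the ligands shared by CD28 and CTLA-4, were the least abundant members. *Cd86* was at 3.78 and 2.38 TPM (228 and 272 counts) in EV RV cells and at 1.93 and 1.54 TPM (189 and 124 counts) in Tox RV cells, with no overlap. Its log2 fold change was -0.73 (SE 0.32, 95% interval -1.52 to 0.05, adjusted p = 0.897 in edgeR's test). *Cd80* was at 15.1 and 8.76 TPM in EV RV cells and at 8.62 and 8.04 TPM in Tox RV cells. Only EV RV replicate 1 was clearly higher, since the other 3 libraries lay within 1 TPM of each other. The log2 fold change of *Cd80* was -0.42 (SE 0.28, 95% interval -1.12 to 0.28, adjusted p = 0.897), and -0.03 without EV RV replicate 1.

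Because other cells also make these ligands, markers of such cells are given beside them. Of the B cell markers, *Ms4a1* and *Pax5* had 0 counts in every library, *Cd79a* was at 0.33 to 1.10 TPM and *Cd79b* at 0.77 to 1.81 TPM, and both overlapped between the groups. The 8 myeloid and dendritic cell markers summed to 2.75 and 2.47 TPM in EV RV cells and 2.15 and 1.43 TPM in Tox RV cells. The highest of them, *Fcer1g*, was at 2.23, 1.42, 0.91 and 0.67 TPM in the same order, on only 30, 36, 20 and 12 counts. It ran with *Cd86* and *Cd80*, all being highest in EV RV replicate 1 and lowest in Tox RV replicate 2. Others did not run with it: *Itgam* was at 0.09 TPM in both EV RV libraries and at 0.23 and 0.11 TPM in Tox RV cells, *Tyrobp* was highest in Tox RV replicate 1 (0.61 TPM), and *Adgre1* was lowest in EV RV replicate 1 (0.10 TPM). *Lyz2*, *Cd14*, *Flt3* and *Csf1r* were each at no more than 0.19 TPM. The 4 NK cell markers summed to 53.8 and 9.79 TPM in EV RV cells and 30.9 and 6.82 TPM in Tox RV cells. Most of this sum came from *Klrd1* (33.18 and 4.21 TPM against 21.86 and 4.26 TPM) and *Klrk1* (19.85 and 5.46 TPM against 8.65 and 2.44 TPM). *Klrb1c* was at no more than 0.73 TPM, and *Ncr1* was at 0 TPM throughout. *Cd8a* and *Cd8b1* together summed to 3.32 to 4.98 TPM over the 4 libraries. The part of such cells in the ligand values was not tested. In bulk RNA, fewer cells that express a gene and less RNA per cell cannot be told apart.

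Across the 9 genes, 2 estimates were above 0 and 7 below, with a median log2 fold change of -0.33, against a median of 0.00 over all genes tested. In TPM, the groups were fully separated with Tox RV higher for 1 gene (*Pdcd1*), which was so for 11.6% of the genes tested. They were fully separated with Tox RV lower for 5 genes (*Icos*, *Btla*, *Pdcd1lg2*, *Cd80* and *Cd86*), which was so for 23.2%. On the scale of TMM-scaled CPM (each gene's share of the counts, with edgeR's scaling), the numbers were 1 gene above and 4 below, since *Cd80* overlapped, against 18.6% above and 17.4% below among all genes tested. At an unadjusted p-value below 0.05, 1 gene was higher (*Pdcd1*; 1.07% of all genes tested) and 1 lower (*Pdcd1lg2*; 2.55% of all genes tested).

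**Figure D2:**
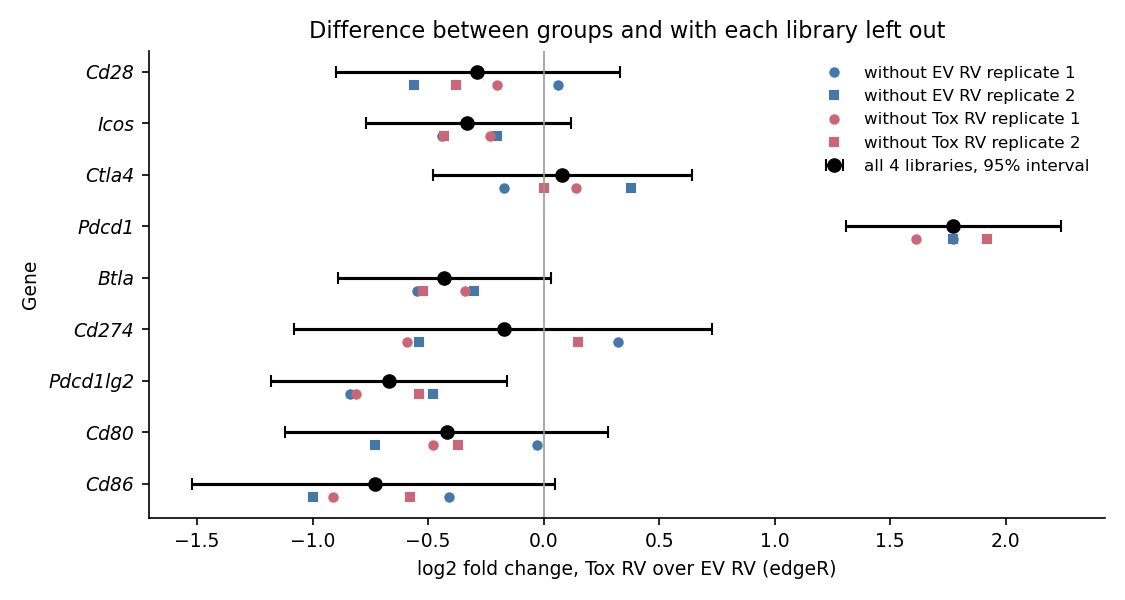
Log2 fold change of Tox RV over EV RV from edgeR for each gene, with the 95% interval (black) and the value with each library left out (coloured). The interval of *Pdcd1* (1.31 to 2.24) lies above 0 and that of *Pdcd1lg2* (-1.18 to -0.16) below 0, while *Cd28*, *Ctla4* and *Cd274* change sign without EV RV replicate 1.

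Several members are neighbours in the genome, and their estimates were compared along it (GENCODE M21, GRCm38). On the plus strand of chromosome 1, *Cd28* (chr1:60716800-60773359), *Ctla4* (chr1:60887000-60915832) and *Icos* (chr1:60977927-61000320) follow each other with gaps of 113641 and 62095 bases, and none of their 95% intervals excluded 0. *Raph1*, which precedes *Cd28* on the opposite strand, had a log2 fold change of -0.99 (SE 0.28, adjusted p = 0.897 by edgeR). *Pdcd1* (chr1:94038305-94052553, minus strand) lies apart from them, and its neighbour *Neu4*, 9971 bases away on the opposite strand, was at no more than 0.04 TPM in any library. On the plus strand of chromosome 19, *Cd274* (chr19:29367455-29388095) and *Pdcd1lg2* (chr19:29410919-29471161) are 22824 bases apart, with *Plgrkt* (log2 fold change 0.11) before and *Ric1* (0.07) after the pair. *Btla* (chr16:45224315-45257670, plus strand), *Cd80* (chr16:38455561-38496335, plus strand) and *Cd86* (chr16:36603869-36666081, minus strand) lie on chromosome 16. Antisense transcripts overlap *Cd274* (*AC119228.1*) and *Pdcd1lg2* (*A930007I19Rik*, 0.28 to 0.68 TPM). The counting is not stated to use strand, so reads from these antisense partners cannot be told apart where they overlap. On the same strand, *Gm37039* overlaps the span of *Icos*, and the processed pseudogene *Rpl18-ps1* overlaps that of *Ctla4*.

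The order of the levels was compared within each group. In EV RV cells the order by mean TPM was *Ctla4*, *Cd28*, *Icos*, *Cd274*, *Pdcd1lg2*, *Pdcd1*, *Btla*, *Cd80* and *Cd86*. The library values of *Ctla4* and *Cd28*, of *Icos* and *Cd274*, and of *Pdcd1lg2* and *Pdcd1* overlapped, so these neighbours in the order are not separated. In Tox RV cells *Pdcd1* came after *Ctla4* and *Cd28* by mean TPM and overlapped with *Cd274* (68.2 ± 23.8 TPM) and *Icos* (67.1 ± 6.76 TPM; SD, n = 2 each). *Pdcd1* exceeded 64.4% and 63.7% of the genes tested in EV RV cells, against 89.6% and 86.9% in Tox RV cells.

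The balance of the receptors within a library does not depend on how libraries are scaled. The summed TPM of the 5 receptors was 576 and 583 in EV RV cells, against 536 and 580 in Tox RV cells. Of this sum *Pdcd1* made up 3.82% and 3.56% in EV RV cells and 14.2% and 10.6% in Tox RV cells. The shares of *Icos* (14.6% and 16.1% against 11.6% and 12.4%) and *Btla* (3.02% and 3.34% against 2.26% and 2.38%) were lower in both Tox RV libraries. *Cd28* made up 39.3% and 23.8% of the sum in EV RV cells and 24.4% and 25.8% in Tox RV cells, and *Ctla4* 39.2% and 53.3% against 47.5% and 48.7%, so that EV RV replicate 1 alone had about equal amounts of *Cd28* and *Ctla4*. These shares were computed after the values had been seen.

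**Figure D3:**
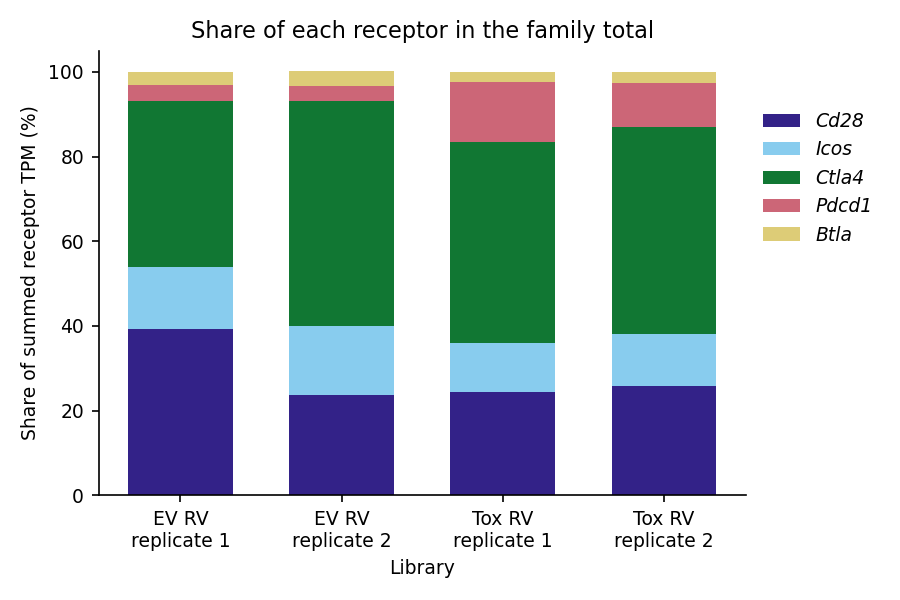
Share (%) of each receptor in the summed TPM of the 5 receptors, 1 stacked bar per library. The *Pdcd1* part is 3.82% and 3.56% for EV RV and 14.2% and 10.6% for Tox RV.

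Ratios between members in the same library showed which pairs moved apart. The TPM of *Pdcd1* relative to its ligand *Cd274* was 0.203 and 0.368 in EV RV cells, against 0.893 and 1.20 in Tox RV cells. Its ratio to *Cd28* was 0.0970 and 0.150 in EV RV cells and 0.580 and 0.412 in Tox RV cells, and its ratio to *Ctla4* 0.0974 and 0.0668 against 0.298 and 0.218. In these 3 ratios the groups did not overlap, and the mean log2 difference (1.92, 2.02 and 1.66) exceeded the pooled SD between replicates (0.48, 0.40 and 0.35). All 3 have *Pdcd1* on top, so they restate its own difference and are not separate results. *Ctla4* over *Icos* was 2.68 and 3.31 in EV RV cells and 4.09 and 3.93 in Tox RV cells, and *Cd80* over *Cd86* 3.98 and 3.68 against 4.47 and 5.22, both higher in Tox RV cells without overlap. The ratios of *Icos*, *Ctla4* and *Btla* to *Cd28*, and of *Pdcd1lg2* to *Cd274*, overlapped between the groups. An exact permutation test of 2 libraries against 2 cannot give a two-sided p-value below 0.333, so these ratios are a description.

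The other genes of the pathway were taken from 5 lists. In edgeR's quasi-likelihood test 0 of the 60 list genes tested passed an adjusted p-value of 0.05 in either direction, and DESeq2 also called 0. The list of other family members and counter-receptors had 7 of 9 genes tested, 5 above 0 and 2 below, with a median log2 fold change of 0.44. That median is the value of *Cd276*, which rests on 21 to 49 counts (SE 0.45). The median was 0.73 without EV RV replicate 1 and 0.12 without Tox RV replicate 1. *Cd160*, a receptor that competes with BTLA for HVEM, was at 15.3 and 9.46 TPM in EV RV cells and 29.5 and 20.6 TPM in Tox RV cells (log2 fold change 1.11, SE 0.29). *Tnfsf14*, which encodes LIGHT, another binding partner of HVEM, was at 12.5 and 19.9 TPM in EV RV cells and 38.5 and 25.7 TPM in Tox RV cells (log2 fold change 1.06, SE 0.32). *Vsir*, which encodes the inhibitory B7-like protein VISTA and is listed under its older symbol *4632428N05Rik*, was at 21.9 and 12.1 TPM in EV RV cells and 34.4 and 24.5 TPM in Tox RV cells (log2 fold change 0.89, SE 0.31). In these 3 genes the groups did not overlap, and the adjusted p-value of each was 0.897 in edgeR's test. Among all genes tested, 11.6% lay higher in Tox RV in the same way in TPM and 18.6% in TMM-scaled CPM. *Vsir* was named after its values were seen.

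*Tnfrsf14*, which encodes HVEM itself, was at 70.4 and 27.0 TPM in EV RV cells and 32.5 and 34.2 TPM in Tox RV cells. Only EV RV replicate 1 was high. Its log2 fold change was -0.44 (SE 0.42), and 0.34 without EV RV replicate 1. *Rgmb*, a binding partner of PD-L2, was at no more than 0.40 TPM (log2 fold change -0.27, and 1.70 without EV RV replicate 1), and *Icosl* and *Cd276* at no more than 1.77 TPM. *Vtcn1* and *Igsf11* had too few counts to be tested.

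The 22 signalling genes below the receptors were divided evenly, 11 above 0 and 11 below, with a median log2 fold change of -0.01 (0.07 without EV RV replicate 1). The highest were *Ptpn6*, which encodes the phosphatase SHP-1, and *Vav1*, which encodes an exchange factor that acts downstream of CD28. *Ptpn6* was at 176 and 140 TPM in EV RV cells and 248.8 and 204 TPM in Tox RV cells (log2 fold change 0.60, SE 0.19). *Vav1* was at 52.8 and 47.7 TPM in EV RV cells and 75.1 and 66.3 TPM in Tox RV cells (log2 fold change 0.58, SE 0.17). *Ptpn11*, which encodes SHP-2, the phosphatase recruited by the switch motif of PD-1, was at 35.01 to 38.3 TPM over the 4 libraries (log2 fold change 0.02, SE 0.16, and -0.07 without EV RV replicate 1, chosen after its values were seen). The lowest were the PI3K subunits *Pik3cb* (log2 fold change -0.64) and *Pik3r2* (-0.45), while *Pik3cd*, the abundant catalytic subunit in T cells, was at -0.27 (also chosen after its values were seen).

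The 15 genes of trafficking and turnover had a median log2 fold change of -0.04 (0.02 without EV RV replicate 1), with 4 above 0 and 11 below. *Cmtm4*, which like *Cmtm6* encodes a protein that stabilizes PD-L1, was at 4.84 and 5.87 TPM in EV RV cells and 2.68 and 3.73 TPM in Tox RV cells (log2 fold change -0.66, SE 0.24). *Cblb*, the ubiquitin ligase that sets the need for CD28, was at 187 and 101 TPM in EV RV cells and 104 and 95.5 TPM in Tox RV cells (log2 fold change -0.43, and 0.02 without EV RV replicate 1), and only EV RV replicate 1 was high. *Def6* (0.32) and *Itch* (0.17) had the highest estimates.

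The 6 genes raised by CD28 costimulation had a median log2 fold change of 0.12, with 4 above 0 and 2 below. *Tnfrsf9*, which encodes 4-1BB, was at 631 and 682 TPM in EV RV cells and 948 and 810 TPM in Tox RV cells, without overlap (log2 fold change 0.50, SE 0.17). *Il2* was at 2.46 and 1.62 TPM in EV RV cells and 4.16 and 0.85 TPM in Tox RV cells, so that the Tox RV libraries lay on either side of the EV RV libraries. *Il2ra* (-0.29) and *Tnfrsf4* (-0.08, and 0.49 without EV RV replicate 2) had the lowest estimates. *Il2ra* was at 436 and 490 TPM in EV RV cells and 379 and 336 TPM in Tox RV cells, also without overlap. Among all genes tested, 11.6% lay higher in Tox RV without overlap in TPM and 23.2% lower. The 10 genes raised by T cell receptor stimulation had a median log2 fold change of 0.04, with 5 above 0 and 5 below, and the median was 0.67 without EV RV replicate 1. *Nr4a2* had a mean of 7.43 ± 0.566 TPM in EV RV cells and 10.9 ± 1.51 TPM in Tox RV cells (SD, n = 2 each), without overlap (log2 fold change 0.64, SE 0.19), and *Nr4a1* at 60.4 and 24.1 TPM against 81.6 and 54.8 TPM, with overlap. *Irf4* (-0.39, and 0.04 without EV RV replicate 2) and *Nr4a3* (-0.31, and 0.67 without EV RV replicate 1) had the lowest estimates. In TPM, 2 genes of this list lay higher in Tox RV without overlap and 1 (*Irf4*) lower, beside the shares of all genes given above. In TMM-scaled CPM *Irf4* overlapped. Since *Pdcd1*, *Ctla4* and *Icos* are themselves induced by the T cell receptor, these values stand beside them, and the part of restimulation strength in the *Pdcd1* value was not tested.

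**Figure D4:**
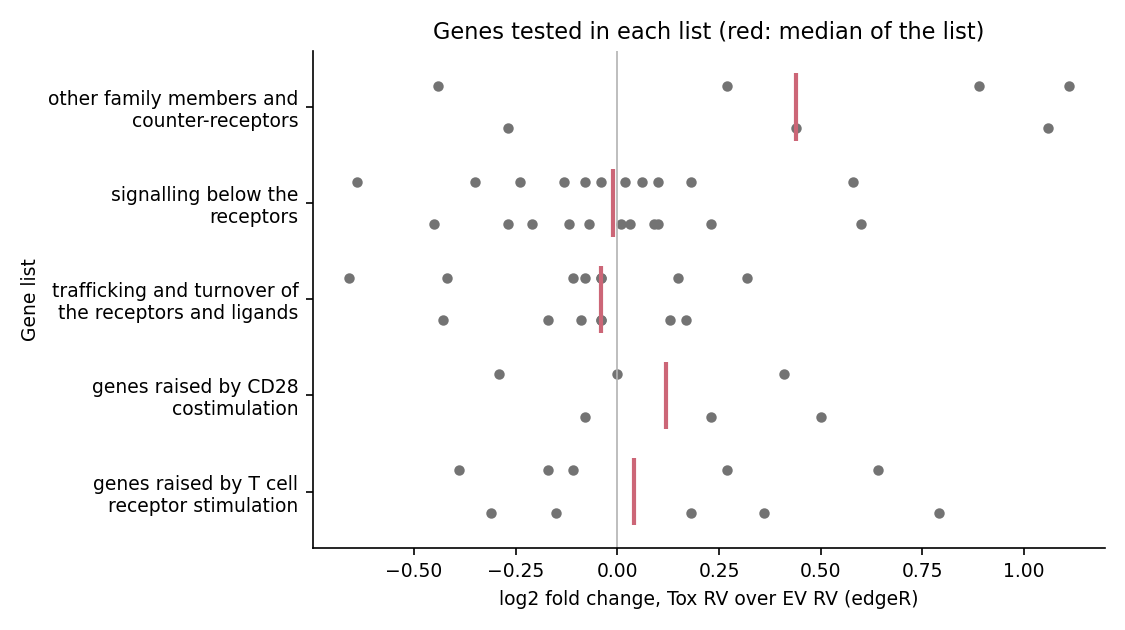
Log2 fold change (edgeR) of every gene tested in the 5 pathway lists, 1 point per gene, spread vertically only for legibility, with the median of each list in red. The medians run from -0.04 to 0.44, and no point passed an adjusted p-value of 0.05.

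The genes whose pattern over the 4 libraries was most like that of *Pdcd1*, by the root mean square difference of log2 CPM centred on each gene's mean, were *4930550C14Rik* (0.06), *Adgrg3* (0.18), *Galr3* (0.18), *Nos3* (0.20) and *Adgrg5* (0.24). *4930550C14Rik* (5 to 31 counts), *Galr3* (18 to 89 counts) and *Nos3* (3 to 27 counts) rest on few counts. *Adgrg3* was at 0.89 and 0.98 TPM in EV RV cells and 3.02 and 2.10 TPM in Tox RV cells, and *Adgrg5* at 1.89 and 1.23 TPM against 5.28 and 3.45 TPM. The member closest to *Pdcd1* by this measure was *Ctla4* (0.87), which ranked 5519 of the genes tested.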

How the data were processed

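Reads of the 4 libraries (2 EV RV, 2 Tox RV) were checked with FastQC, aligned with bowtie to mm10 transcripts and quantified with RSEM by the authors. Versions and the use of strand are not given in the sources used here. The deposited expected counts are not normalized and were rounded to whole numbers. The deposited TPM values are RSEM's and served for levels and ratios. A further deposited table of normalized values was not used.

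Expected counts were analysed in R 4.3.3 with edgeR 4.0.16 (filterByExpr with a minimum count of 10, TMM, glmQLFit and glmQLFTest, no covariate). The common biological coefficient of variation was 0.232, and the 95% intervals used 5.77 median total degrees of freedom. DESeq2 1.42.0 and limma 3.58.1 on log2(TPM + 1) and log2(TPM + 0.1) were alternatives. Both count tests were tested on simulated data. Depth was 46989997 to 74548723 counts per library. Replicates differed by more than counting error (chi-square per degree of freedom 412 in EV RV, 74.3 in Tox RV). The edgeR p-values and intervals rest on the spread between 2 libraries per group, combined with the spread seen across all genes. Of the 5.77 degrees of freedom, 3.77 came from all genes.

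The 9 genes, the gene lists, the markers and the rule for named genes (all members, *Tox*, the 2 highest and 2 lowest genes of each list, the 5 genes nearest to *Pdcd1*, and neighbours) were chosen with earlier results of these data known. Positions and coding sequences come from GENCODE M21, and promoters from RefSeq, which held 6 of the 9 genes. Of the B cell markers, 1 is not reported here.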

Additional observations from a re-analysis of the deposited data

How the results depend on the processing

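Of 99 fits of single members under the alternatives, 90 kept the direction and side of the threshold. The number of genes with an adjusted p-value below 0.05, 0 in edgeR's test, was 22 in DESeq2, 22 without the low-count filter, 16 with the replicate block, and 1 to 600 when a library was left out (600 without EV RV replicate 2). In those fits the lone library was assumed to vary like the other group. *Pdcd1* passed the threshold in DESeq2 (log2 fold change 1.78, adjusted p = 1.06e-08), without the low-count filter (1.79, adjusted p = 0.00034), with the replicate block (1.76, adjusted p = 0.00133), without EV RV replicate 2 (1.77, adjusted p = 0.0295) and without Tox RV replicate 2 (1.92, adjusted p = 0.00272), and over the fits that left out 1 library it ranged from 1.61 to 1.92. It did not pass with other scaling, in limma on either TPM scale, or without EV RV replicate 1 (adjusted p = 0.269) or Tox RV replicate 1 (adjusted p = 0.086). The block changed no other member's call. Libraries of the same number deviated together (correlation 0.302), but no source ties a number to a mouse. With each library left out, *Cd28* ranged from -0.56 to 0.06, *Ctla4* from -0.17 to 0.38 and *Cd274* from -0.59 to 0.32; the causes were not tested. Scaling by library totals shifted the median of all genes by 0.12, and with it the list medians of other family members (0.56) and of signalling genes (0.10). With each library left out, these list medians ranged from 0.12 to 0.73 and from -0.12 to 0.07, and that of genes raised by T cell receptor stimulation from -0.22 to 0.67. Ratios from CPM moved by less than the pooled SD. This is no independent check, because within a library the 2 kinds of ratio differ only by transcript lengths, which hardly moved between libraries.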
